A study of Rattus norvegicus with 4 samples.

Results

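Genes of 10 scavenger and lectin receptors, through which macrophages bind particles, were examined in rat alveolar macrophages exposed to a titanium dioxide material. The genes were Marco, Msr1, Cd36, Scarb1, Cd68, Cd163, Stab1, Mrc1, Clec7a and Olr1. A probe belonged to one of them where its accession is listed for that rat symbol in RefSeq. Of the 10 genes 9 had a probe, among 16579 genes with a symbol and a value, while Stab1 had no probe with a matched accession. The cells were NR8383, an established line that came from washing out the lung of a healthy rat, at passage 20 per the labels. For 4 h all 4 cultures (replicates 1 to 4) had been exposed to TiO2 (NRCWE001), dosed by surface area at 3 cm2/cm2. As unexposed cells were not analysed here, nothing below tells whether the particles changed a receptor's transcript. The measurements compare each probe with the background of its array, and the 4 exposed cultures with each other.

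Scavenger receptors are membrane proteins that bind polyanionic or modified ligands such as oxidised lipoproteins, bacterial surfaces and mineral particles. They are grouped in classes by structure, and several are recycled between the cell surface and endosomes. C-type lectin receptors bind sugars, and some of them signal through tyrosine kinases once a particle has clustered them. In alveolar macrophages both groups take part in the uptake of inhaled dust without antibody or complement.

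Each culture was measured on 1 array with 45598 distinct probes beside controls, and the 4 arrays lay on a single slide, so culture and array cannot be told apart. Over the spots in use, the 75th percentile of signal on replicates 1 to 4 was 433, 347, 554 and 414 intensity units, and no spot was saturated. A level below is log2 of the signal minus that percentile of the same array. A probe was called detected where the scanner software had flagged over 0.5 of its spots as well above background. Against 45.7% of all measured genes, macrophage markers were detected on all arrays in 14 of 16 measured cases (87.5%). Among them were the growth factor receptor gene Csf1r (-0.53 ± 0.09, SD, n = 4), the lineage factor gene Spi1 (1.87 ± 0.19) and the Fc receptor chain gene Fcer1g (5.98 ± 0.06). Lgals3, the galectin with the widest spread among these markers, lay at 7.85 ± 0.33. Of the remaining macrophage markers, Mertk was detected on 3 arrays, and the defining marker Adgre1 was well above background on none. Against the same 45.7%, markers of other cells were detected on all arrays in 6 of 23 measured cases. They were Foxj1 of ciliated epithelium (-2.87 ± 0.35), Nkg7 of lymphocytes (-1.20 ± 0.19), S100a8 of granulocytes (-1.46 ± 0.30) and the endothelial genes Pecam1, Cdh5 and Vwf (0.23 ± 0.12, -4.11 ± 0.30 and 2.79 ± 0.23), of which Pecam1 is also known from leukocytes. Cd3d, a T cell gene, was detected on 3 arrays and Krt18, an epithelial keratin gene, on 1. The other 15 markers, among them Col1a1, Cd3e, Epcam, Elane and Sftpc, lay below the detection flag on every array.

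Of the receptor genes 6 were detected on all 4 arrays and 3 on none. Cd36, Scarb1, Cd68, Olr1, Mrc1 and Clec7a were the 6 of 9 measured genes (66.7%), where 45.7% of all measured genes were detected on every array. Marco, Msr1 and Cd163 were well above background on no array. Leaving out any 1 array gave the same count of 6.

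**Figure D1:**
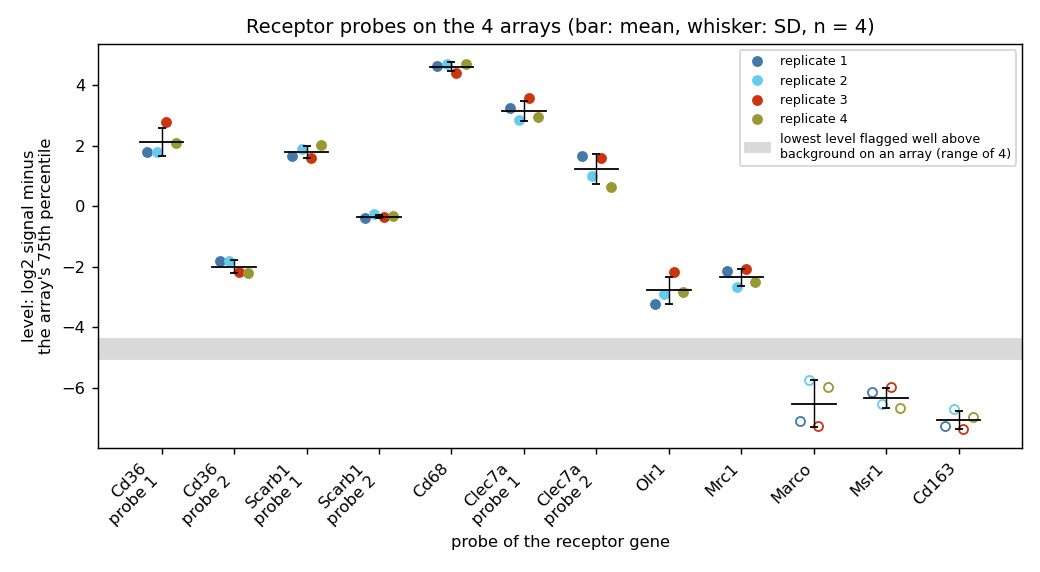
Level of every receptor probe on each array (y axis, log2 signal minus the array's 75th percentile), one column of 4 points per probe, with the mean as a bar and the SD as a whisker. Filled points belong to probes detected on all 4 arrays. Open points belong to the Marco, Msr1 and Cd163 probes, all below the grey band, which spans the lowest level flagged well above background on each array. Levels of different probes have no common scale.

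The class A receptors have a collagen-like stalk, which in Msr1 binds polyanions. Marco, which binds unopsonised particles in alveolar macrophages, gave processed signals of 3.16, 6.47, 3.59 and 6.50 intensity units on replicates 1 to 4. The dimmest spot flagged well above background had 13.5, 16.6, 16.6 and 16.3 units on the same arrays. Marco thus lay below that floor on all 4, although the weaker flag, for a positive and significant signal, was set on replicates 2 and 4. Msr1, the class A receptor for modified lipoproteins, gave 6.18, 3.72, 8.80 and 4.07 units and carried the weaker flag on replicate 3 alone. Its 1 spot stood at column 6 of the array, and Marco's at column 133. For both genes the array sets only an upper bound, and their order over the arrays has no meaning.

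Cd163, a receptor with scavenger cysteine-rich domains that takes up haptoglobin bound to haemoglobin, gave 2.81, 3.36, 3.34 and 3.30 units. It carried neither flag on any array, with raw spot signals 1.25 to 1.38 times the local background. Each of these 3 genes was measured by 1 probe on 1 spot, so an unresponsive probe was not told apart from a missing transcript.

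The class B receptors are hairpin-shaped proteins with 2 membrane spans that bind lipids, lipoproteins and dying cells. Cd36, which takes up oxidised lipoproteins and fatty acids, was measured by 2 probes of the same accession. The brighter of them lay at 1.81, 1.81, 2.80 and 2.10 on replicates 1 to 4. Replicate 3 was the highest, though not an outlier by Dixon's test (gap over range 0.707, below the 95% critical value). The highest and lowest differed by 0.99 (log2), or 1.98-fold, and the SD was 0.47, above that of 97.6% of the 7570 genes tested. Their median SD was 0.163.

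The spread of each gene between the arrays was tested against the prior variance that limma fitted over genes of like level. At an adjusted p under 0.05 this called 39 of 7570 genes (0.515%). None of the 6 detected receptors was called. In simulated data the test called 14% of genes given 2 times the prior SD and 40% of those given 3 times. Most genes of such spread were thus missed there. An unadjusted p under 0.05 was found for 3 of the 6, and for 505 of the 7570 genes (6.67%). Cd36 came nearest, with an SD 2.99 times that of the prior, an unadjusted p of 0.000359 and an adjusted p of 0.0632 by limma. Its call depended on the processing. Cd36 passed with normexp background correction (limma, adjusted p = 0.000768), with spots beyond column 72 alone (0.0117), without replicate 1 (0.0274), without replicate 2 (0.0493) and when undetected genes were tested as well (0.00831). It did not pass without replicate 4 (limma, adjusted p = 0.0831), with outlier spots kept (0.103) or after quantile normalization (0.137). Nor did it pass with an untrended, non-robust prior (0.748) or with levels relative to the detected probes' median (0.0761). Without replicate 3 the SD of Cd36 was 0.17 and the adjusted p 0.987. The prior had 143 or infinite degrees of freedom where Cd36 passed, and 6.91 to 24.3 where it did not. The part of the prior in these calls was not tested.

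**Figure D2:**
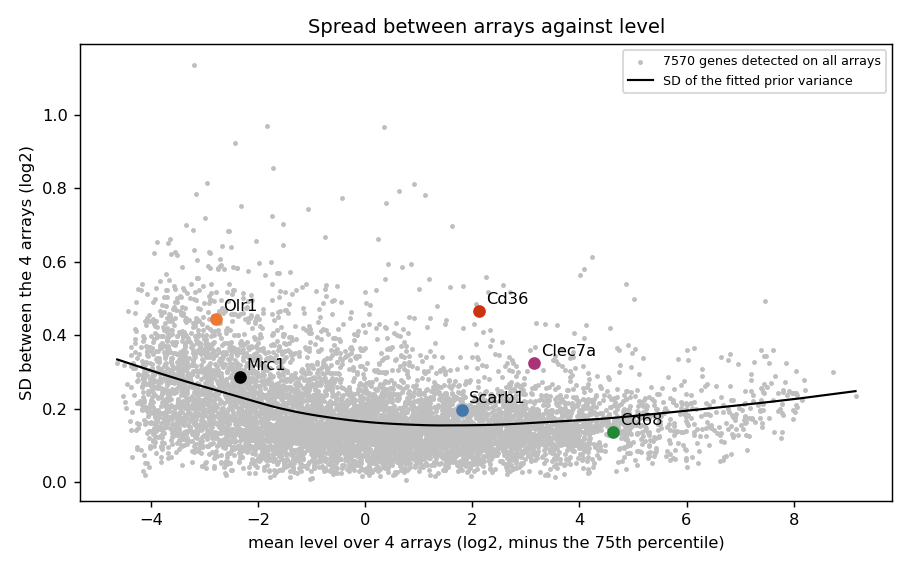
SD of each gene between the 4 arrays (y axis, log2) against its mean level (x axis, log2 minus the array's 75th percentile) for 7570 genes detected on all arrays, with the SD of the prior variance fitted by limma as a line. Cd36, Clec7a and Olr1 lie above the line at 2.99, 2.00 and 1.78 times its height, while Cd68 lies below it.

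The brighter Cd36 probe was printed on 10 spots of each array, which gives the spot noise beside the difference between arrays. On replicate 3 the 8 spots in use ran from 2.73 to 2.90, with a median of 2.80. On replicate 2 the 9 spots in use ran from 1.77 to 1.86, and on replicate 4 all 10 ran from 2.01 to 2.24. No spot of replicates 1, 2 or 4 reached the lowest spot of replicate 3. These spots repeat 1 RNA sample and are no replicates of the culture.

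Replicate 1 differed from the other arrays in how much its Cd36 spots scattered. They ran from 1.25 to 2.33 with an SD of 0.46, against 0.03 to 0.08 on the other arrays. The 6 spots in columns 1 to 72 averaged 1.51 ± 0.30 (SD over spots) and the 4 beyond them 2.27 ± 0.10, a difference of 0.77. The same difference was 0.00, 0.07 and 0.04 on replicates 2, 3 and 4. With the spots beyond column 72 alone the replicate 1 level of Cd36 was thus above those of replicates 2 and 4, and its place among those 3 arrays rests on which spots are read. Replicate 3 remained the highest, 0.58 above the mean of the arrays, against 0.67 with all spots.

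**Figure D3:**
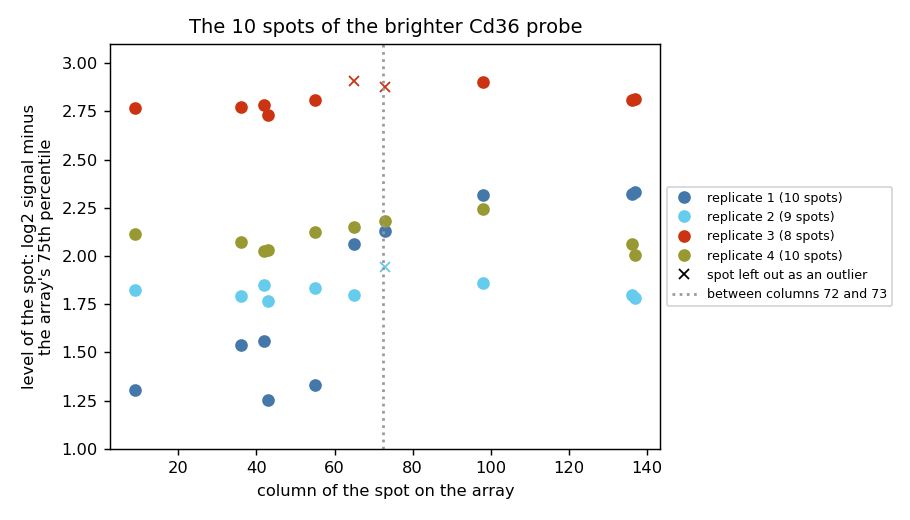
Level of each of the 10 spots of the brighter Cd36 probe (y axis, log2 signal minus the array's 75th percentile) against the column in which it was printed (x axis), coloured by replicate. Crosses are spots left out as outliers, and the dotted line separates columns 72 and 73. Replicate 3 lies above all other spots, and replicate 1 runs from 1.25 in the left columns to 2.33 in the right ones.

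The second Cd36 probe did not share this pattern. It was detected on all arrays and lay at -1.82, -1.81, -2.16 and -2.21 on replicates 1 to 4, with an SD of 0.21. Replicate 3 was 0.16 below its mean there, where the brighter probe was 0.67 above. When both probes were averaged, the SD of Cd36 was 0.17 and the adjusted p by limma 0.989, so the spread of Cd36 holds for 1 of its 2 probes.

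Scarb1, the receptor through which cells exchange cholesterol with high-density lipoprotein, also had 2 probes. The brighter one lay at 1.67, 1.90, 1.61 and 2.03 on replicates 1 to 4. The other lay at -0.40, -0.27, -0.37 and -0.31. Neither was high on replicate 3. The SD was 0.20 for the brighter probe (limma, adjusted p = 0.991) and 0.06 for the other, which was not tested, beside a median of 0.163 over the tested genes.

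Cd68, a heavily glycosylated class D receptor that sits mostly in late endosomes and lysosomes and serves as a macrophage marker, lay at 4.63, 4.70, 4.42 and 4.72. The 4 cultures differed little, with an SD of 0.14, a fold of 1.23 between the highest and lowest and an SD 0.776 times that of the prior. In raw terms the Cd68 spot was 231 to 325 times as bright as its local background. Replicate 3 was the lowest, as it was for 45.3% of the tested genes.

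Olr1, the lectin-like receptor for oxidised low-density lipoprotein and a class E member, was detected close to the floor. It lay at -3.23, -2.91, -2.17 and -2.82 on replicates 1 to 4, from raw spots 2.56 to 4.18 times as bright as the local background. Replicate 3 was again the highest, by a fold of 2.09 over replicate 1. Its SD of 0.45 had an unadjusted p of 0.0429 and an adjusted p of 0.685 by limma. The single spot stood at column 64. On replicate 1 the Cd36 spots at columns 9 to 55 were low, while the one at column 65 read 2.06, close to the spots beyond column 72. With normexp the SD of Olr1 was 0.14, and replicate 3 was 0.18 above the mean instead of 0.61. Normexp was run with an added offset of 50 intensity units, which by itself narrows log2 differences between weak signals. A smaller SD with normexp thus does not tell where the spread of a weak probe came from.

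The lectin receptors Mrc1 and Clec7a bind sugars of microbial and host surfaces. Mrc1, the mannose receptor, which carries many lectin domains in a row, lay at -2.13, -2.68, -2.09 and -2.49 on replicates 1 to 4. Replicates 1 and 3 were close to each other and above replicates 2 and 4. The SD of 0.29 did not pass the test (limma, adjusted p = 0.991), and with normexp replicate 3 was 0.02 above the mean, against 0.26.

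Clec7a, which encodes the beta-glucan receptor dectin-1, had 2 probes, and both were detected on all arrays. The brighter one lay at 3.25, 2.85, 3.57 and 2.95 and the other at 1.67, 0.99, 1.60 and 0.65 on replicates 1 to 4. Both were higher on replicates 1 and 3 than on replicates 2 and 4, with no overlap. The SDs were 0.32 and 0.49. The brighter probe had an unadjusted p of 0.0188 and an adjusted p of 0.475 by limma, and it passed with normexp (adjusted p = 0.0233). Replicates 1 and 3 were also the arrays with the highest 75th percentile of signal, and its part in this pattern was not tested.

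Taken array by array, 4 of the 6 detected receptors had their highest value on replicate 3 by their brightest probe, namely Cd36, Olr1, Clec7a and Mrc1. Of the second probes, that of Cd36 was highest on replicate 2 and that of Clec7a on replicate 1. Among all tested genes 19.0% were highest there, and their median deviation on that array was -0.08. Cd36 was 0.67 above its mean on replicate 3, a deviation that 0.251% of the tested genes exceeded, and Olr1 was 0.61 above, exceeded by 0.542%. Clec7a (0.41) and Mrc1 (0.26) were exceeded there by 3.42% and 9.60%. Scarb1 and Cd68, each 0.19 below their means, had replicate 4 as their highest array. None of these deviations has a replicate of its own, since replicate 3 is 1 culture on 1 array.

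**Figure D4:**
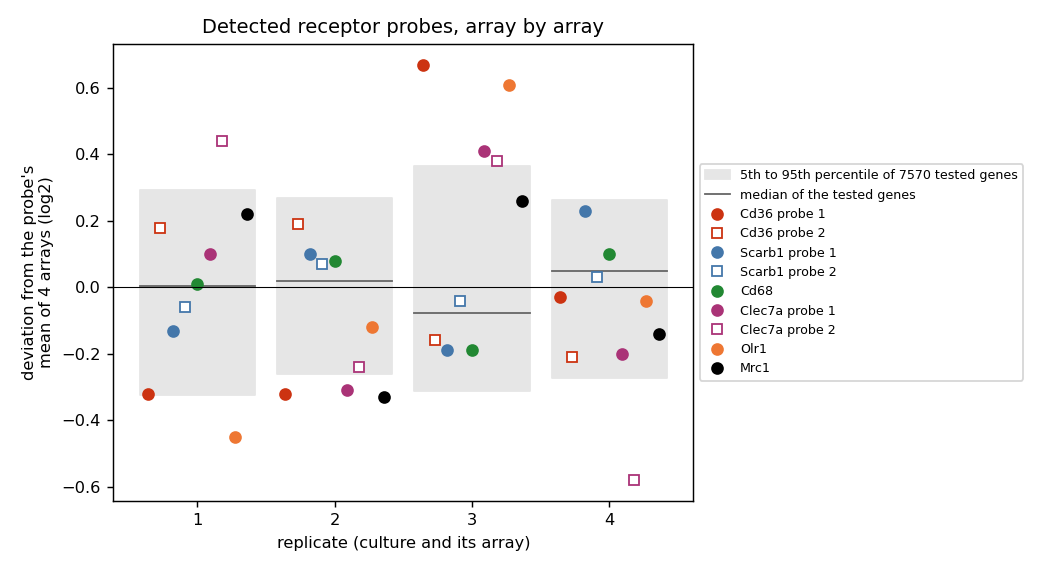
Deviation of each detected receptor probe from its own mean of 4 arrays (y axis, log2) by replicate (x axis), with the 5th to 95th percentile of 7570 tested genes as grey boxes and their median as a line. Open squares are second probes of a gene. On replicate 3 Cd36 probe 1 and Olr1 lie 0.67 and 0.61 above their means, while Cd36 probe 2 lies 0.16 below.

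The promoters of the 4 receptors that were highest on replicate 3 are shown to place them, from RefSeq, build GRCr8, each with 250 bases before and 50 after a transcript start, written 5′ to 3′ on the strand of the gene. Capitals mark matches on either strand to GAGGAA, the core bound by PU.1, the product of Spi1. The windows are chr4:18246332-18246631 on the plus strand for Cd36, chr4:164634498-164634797 on the minus strand for Olr1, chr4:164599778-164600077 on the minus strand for Clec7a and chr17:82157475-82157774 on the plus strand for Mrc1. For Cd36, Olr1 and Clec7a the gene models in the same annotation begin upstream of the start used.
Cd36: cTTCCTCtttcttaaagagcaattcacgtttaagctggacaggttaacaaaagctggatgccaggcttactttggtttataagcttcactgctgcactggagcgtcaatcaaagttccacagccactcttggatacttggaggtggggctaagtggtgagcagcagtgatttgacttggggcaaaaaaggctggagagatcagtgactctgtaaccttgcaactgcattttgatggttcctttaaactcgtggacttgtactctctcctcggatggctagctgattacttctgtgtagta
Olr1: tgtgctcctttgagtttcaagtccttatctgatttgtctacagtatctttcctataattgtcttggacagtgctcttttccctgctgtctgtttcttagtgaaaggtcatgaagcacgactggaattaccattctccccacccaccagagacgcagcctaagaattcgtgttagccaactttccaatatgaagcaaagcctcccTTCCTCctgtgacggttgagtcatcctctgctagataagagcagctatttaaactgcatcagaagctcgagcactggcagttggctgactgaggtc
Clec7a: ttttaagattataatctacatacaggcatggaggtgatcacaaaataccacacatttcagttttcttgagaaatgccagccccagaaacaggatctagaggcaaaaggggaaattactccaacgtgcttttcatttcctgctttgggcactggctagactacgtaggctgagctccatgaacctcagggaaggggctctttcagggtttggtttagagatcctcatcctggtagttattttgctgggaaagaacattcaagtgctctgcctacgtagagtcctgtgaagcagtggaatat
Mrc1: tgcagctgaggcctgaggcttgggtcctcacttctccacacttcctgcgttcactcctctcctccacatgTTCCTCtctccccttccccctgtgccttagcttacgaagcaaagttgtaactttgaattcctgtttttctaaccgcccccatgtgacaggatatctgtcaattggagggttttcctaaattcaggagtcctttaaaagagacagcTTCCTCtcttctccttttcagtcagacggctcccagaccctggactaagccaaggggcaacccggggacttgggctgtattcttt

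The PU.1 core occurred once in the Cd36 window, at -249 from the start, once in that of Olr1, at -46, and at -180 and -35 in that of Mrc1. The Clec7a window held none. Of the 8 receptor genes with a listed promoter, 6 held the core, also Cd68, Marco and Stab1, where 27.6% of 33469 promoters of the same length did. Marco, which was not detected, held 1 match, and Clec7a, which was, held none. An AP-1 site (TGANTCA) occurred in the Olr1 and Cd68 windows, against 7.33% of all promoters, and a nuclear receptor half-site (AGGTCA) in the Olr1 window, against 16.2%. The letters TATAAA occurred in the Cd36 and Marco windows, against 14.2%. The C/EBP motif TTGCNNAA, the antioxidant response element TGACNNNGC and the NF-kB motif GGANNTTCC occurred in none of the 8, against 10.6%, 12.1% and 4.09% of all. All motifs were searched on both strands, and none of these matches is evidence of a bound factor.

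Against 45.7% of all measured genes, 3 of 14 measured genes of other scavenger receptors were detected on all arrays (21.4%). They were Scarb2, a lysosomal relative of the class B receptors (0.83 ± 0.11, SD, n = 4), Cxcl16, a membrane chemokine that also binds oxidised lipoprotein (-0.78 ± 0.09), and Lrp1, a large endocytic receptor (-0.76 ± 0.15). Dmbt1 was detected on 2 arrays and Ager on 3, while 9 genes, among them Scara5, Colec12, Scarf1 and Stab2, were detected on none. The median SD of the 3 detected genes was 0.113, and none was highest on replicate 3, against 19.0% of all tested genes.

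Of the other C-type lectin receptors 8 of 18 measured genes were detected (44.4%), against 45.7% of all measured genes. Clec2d lay at -2.83 ± 0.18 (SD, n = 4), Clec4a1 at 2.22 ± 0.10 and Clec4a2 at -1.04 ± 0.36, the last 2 from a family of near copies whose probes may share signal. Clec5a, a receptor that signals through an adaptor chain, had the largest SD, with -2.99, -3.92, -3.12 and -3.73 on replicates 1 to 4. Its replicates 1 and 3 were the higher pair, and with normexp its SD was 0.11. The same pair was higher for Clec7a, Mrc1, Clec2d, Clec4a2, Tlr4 and the granulocyte marker gene S100a8, though not for Clec4a1. Replicates 2 and 4 were instead the higher pair for Scarb1, Cd68, Scarb2, Cxcl16, Card9, Nr1h3, Mfge8, Fcer1g, Lgals3, Pecam1, Cdh5 and Vwf. How many of all tested genes had either order was not counted. The fungal receptor genes Clec4d and Clec4e were not well above background. The 8 detected genes had a median SD of 0.246, and 4 of them were highest on replicate 3, against 19.0% of all tested genes. Limma called none, against 0.515% of all tested genes, and 2 had an unadjusted p under 0.05, against 6.67%.

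Most genes that act behind dectin-1 were detected, in 8 of 10 measured cases (80.0%), against 45.7% of all measured genes. Syk, the kinase that the receptor recruits, lay at 1.22 ± 0.15 (SD, n = 4), its downstream adaptor gene Card9 at 1.34 ± 0.15 and Bcl10, the partner of Card9, at 0.88 ± 0.12. Plcg2, the phospholipase of the pathway, had the widest spread (-0.12 ± 0.26). On replicate 3 it fell 0.35 short of its mean, and Clec7a exceeded its own by 0.41. Src and Cybb were not well above background. The median SD of the list was 0.139, and none of its genes was called, against 0.515% of all tested genes.

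Genes that work with the class B receptors in lipid uptake were detected in 17 of 18 cases (94.4%), against 45.7% of all measured genes. Pparg, the nuclear receptor for fatty acids that induces Cd36 in macrophages, lay at 4.27, 4.06, 3.97 and 3.99 on replicates 1 to 4. Pparg was thus not high on replicate 3, where Cd36 was high by its brighter probe alone. Any link between these genes was not tested. The oxysterol receptor gene Nr1h3 lay at 4.20 ± 0.19 (SD, n = 4) and its partner Rxra at -3.11 ± 0.27. The largest SD belonged to Tlr4, the lipopolysaccharide receptor that can pair with Cd36 (-2.33 ± 0.38). It was 0.46 above its mean on replicate 3 and 0.45 below on replicate 2. With normexp the SD of Tlr4 was 0.13. Pdzk1, the adaptor of Scarb1 in liver, was not well above background. None of the 17 was called, against 0.515% of all tested genes, and 6 were highest on replicate 3, against 19.0%.

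**Figure D5:**
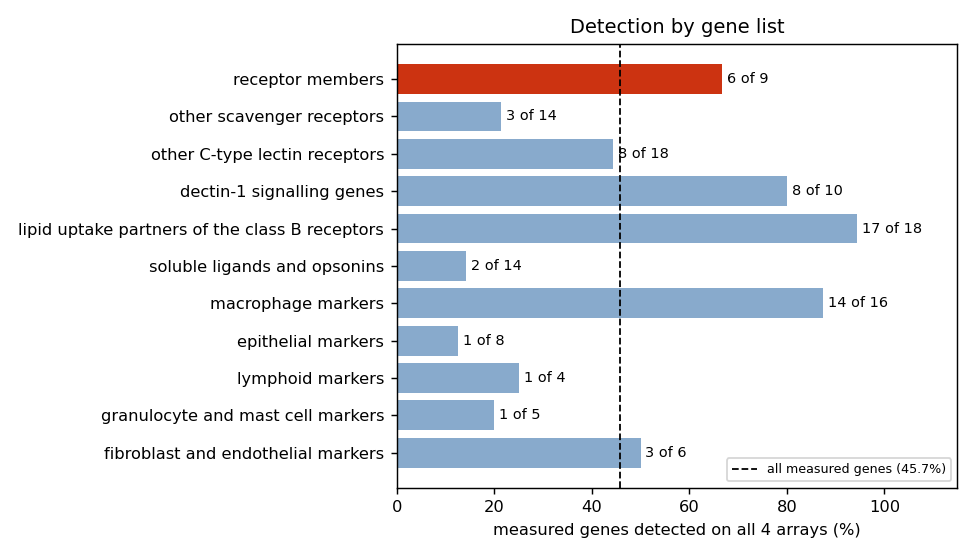
Share of each list's measured genes that were detected on all 4 arrays (x axis, percent), with counts beside the bars and the share over all measured genes (45.7%) as a dashed line. The receptors (6 of 9) and their lipid uptake partners (17 of 18) lie above the line, and other scavenger receptors (3 of 14) and soluble ligands (2 of 14) below it.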

How the data were processed

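Total RNA was measured in 4 cultures, each on its own one-colour array. The deposited intensity of a spot had been corrected for background and for spatial trends within its array, per the file headers, with no step that brings arrays to a common scale. The software was Agilent Feature Extraction (11.0.1.1), as the submitters' processing notes also say. Flags (other columns) were used as deposited. The array's own annotation uses an earlier genome build than RefSeq's table, so no gene coordinates are given beyond the promoter windows.

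Spots that the software had marked as outliers (634 to 669 of 58717 per array) were left out, signals were scaled to the 75th percentile and put on the log2 scale, and spots of a probe were averaged. Of 45598 probes, 21109 were named through their accession in RefSeq's GRCr8 gene table, without versions. The brightest probe stood for a gene. Spread was tested with limma 3.58.1 (R 4.3.3) on 7570 genes detected on all arrays, with a trended and robust prior (24.3 prior degrees of freedom) and Benjamini-Hochberg adjustment, and the script was tested on simulated data. A p here measures spread between cultures and arrays together.

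The receptors, the lists and the tests were chosen with earlier results of these data known. Named were the 10 receptors, from each related list and the macrophage markers the first 3 genes detected on all arrays and the one with the largest SD, and other cell types' markers detected on all arrays. Further genes, the neighbours of Clec7a among them, were chosen after their values were seen. The whole gene set was not searched for a pattern like a receptor's, since 4 arrays of 1 group hold no pattern across conditions. Named genes that shared an order over the arrays with Clec7a were grouped after their values were seen. The number of arrays limits the precision. Figures were drawn with matplotlib 3.10.9.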

Additional observations from a re-analysis of the deposited data

How the results depend on the processing

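The count of 6 detected receptors was the same with the weaker flag, with 1 array sufficing, when all probes of a gene had to be detected, with flagged spots kept and without any 1 replicate. Detected scavenger receptors of the related list numbered 5 in place of 3 with the weaker flag and 5 with 1 array sufficing. Of the receptors limma called 2 with normexp, 1 with undetected genes included, 1 with spots beyond column 72 alone (an alternative chosen after seeing the data) and 0 to 1 without single replicates, in place of 0 (3 with an unadjusted p under 0.05). Over all genes the calls by limma were 206 with normexp, 127 with undetected genes included, 21 beyond column 72, where 4963 genes were tested, 0 when arrays were quantile normalized (491 at unadjusted p under 0.05), 0 with a prior without trend or robust estimation (450) and 10 to 77 without single replicates, in place of 39. The cause of these changes was not tested. Levels depend on the scale and on the probe. When all detected probes of a gene were averaged, Cd36 lay at 0.06 in place of 2.13, Scarb1 at 0.73 (1.80), Clec7a at 2.19 (3.15), Syk at -0.63 (1.22) and Vwf at -0.49 (2.79), and beyond column 72 Foxj1 lay at -6.26 (-2.87). Cd68 lay at 4.46 after quantile normalization and at 5.18 relative to the median of detected probes, while the deviation of Cd36 on replicate 3 ran from 0.25 (mean of its probes) to 0.73 (quantile normalization). Naming probes by a gene name column was not run, as accessions are the only names in the columns used. No paired analysis was possible because there is 1 group. Signals near background limit Olr1, Mrc1, Clec5a and Tlr4. Their spread shrank with normexp, but its offset of 50 units narrows log2 differences between weak signals. The source of their spread was not tested.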

Other observations

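Clec7a and Olr1 are neighbours on rat chromosome 4 with no protein-coding gene between them in RefSeq's order, inside a cluster of lectin receptor genes. Of the 4 lectin genes just beside Clec7a on the other side, Clec1a, Clec9a, Clec1b and Clec12b, none was well above background on any array. Clec12a, an inhibitory receptor of myeloid cells beyond them, was detected on all and lay at -1.05, -1.50, -0.84 and -1.17 on replicates 1 to 4. It was highest on replicate 3, as Clec7a and Olr1 were, and as 19.0% of all tested genes were. On the far side of Olr1, Tmem52b was not well above background. Gabarapl1, an autophagy gene next to it, was detected at 4.35, 4.36, 4.36 and 4.53, and was highest on replicate 4. The natural killer receptor genes Klre1, Klrd1, Klrk1 and Klrc3 were not well above background. These neighbours were chosen by position after the values of Clec7a and Olr1 were known.

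Soluble proteins that coat particles or serve as ligands of these receptors were rarely detected. Against 45.7% of all measured genes, 2 of these 14 measured genes were detected on all arrays (14.3%). They were Mfge8, a bridge to dying cells (-0.24 ± 0.12, SD, n = 4), and Apoe, a lipoprotein component (-3.68 ± 0.08). The surfactant gene Sftpa1 was detected on 1 array. Hp, Thbs1 and Sparc, which encode ligands of Cd163, Cd36 and Stab1, and the complement genes C1qa, C1qb and C1qc were not well above background.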
